A study of Mus musculus with 16 samples.

Results

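The interferon regulatory factors are the transcription factors of the IRF family, and the 8 described here are Irf1, Irf2, Irf3, Irf4, Irf5, Irf7, Irf8 and Irf9. They were chosen by gene symbol from the 13085 genes listed for 16 RNA-seq libraries of mouse monocytes, and each of the 8 is listed and passed the filter on low values.

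The study compared monocytes of NFAM1+/+ and NFAM1-/- mice, either unstimulated or given IFN-γ plus 1 µg/mL MegaCD40L, a multimeric form of the T cell ligand CD40L, after 6 or 24 h in culture. The mice are of the C57BL/6 strain, and NFAM1-/- mice were made by CRISPR deletion of exons 2 and 3 of Nfam1 in C57BL/6NTac zygotes, with both genotypes bred from heterozygous parents. The labels call the cells PBL monocytes while the study's methods describe monocytes taken from bone marrow with an enrichment kit, the dose of IFN-γ differs between labels and methods, and ages are not given. At 6 h each of the 4 combinations of genotype and stimulus has 2 libraries, and at 24 h there are 4 unstimulated and 4 stimulated libraries. Of the 8 libraries at 24 h, 4 have a title and a genotype tag that name different genotypes, so the 24 h groups join both genotypes wherever genotype is not the question. The study's legend names 4 NFAM1+/+ and 6 NFAM1-/- mice, fewer than the 16 libraries, so some libraries share an animal, and the labels do not say which. Libraries were fitted as if independent, and the p-values below measure only the spread between libraries. Reads on the listed genes ranged from 48295939 to 88514341 per library at 6 h and from 56328053 to 77256316 at 24 h. Levels are given in CPM, which are reads scaled to a common library size, with the scaled sizes that the authors used.

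The IRF family shares an N-terminal DNA-binding domain that reads GAAA-type repeats in the interferon-stimulated response element (ISRE). IRF1 is made in response to IFN-γ and drives genes of antigen presentation and host defence, with IRF2 as its competitor at the same elements. IRF3, IRF5 and IRF7 wait in the cytoplasm for phosphorylation downstream of microbial sensors, IRF9 carries the DNA binding of the ISGF3 complex, and IRF4 and IRF8 bind together with the ETS factor PU.1 to shape myeloid and lymphoid cells.

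Nfam1, the deleted gene, was read first as a check of the labels. Unstimulated at 6 h its level was 432 and 408 CPM where the label says NFAM1+/+, and 299 and 321 CPM where it says NFAM1-/-. The labelled genotypes did not overlap there, and Nfam1 was far from 0 in each library, in a gene-level count that also takes in exons outside the deletion. With the stimulus at 6 h it measured 133 and 129 CPM in libraries labelled NFAM1+/+ and 135 and 127 CPM in those labelled NFAM1-/-, which overlap, so genotype is given below as the label states it. Unstimulated at 24 h, Nfam1 measured 441 CPM in library 43 (NFAM1-/- by both labels), 495 in library 45 (NFAM1+/+ by both), 463 in library 44 (title NFAM1+/+, tag NFAM1-/-) and 391 in library 46 (title NFAM1-/-, tag NFAM1+/+). Stimulated at 24 h it measured 201 CPM in library 55 (NFAM1-/- by both), 252 in library 57 (NFAM1+/+ by both), 271 in library 56 (title NFAM1+/+, tag NFAM1-/-) and 223 in library 58 (title NFAM1-/-, tag NFAM1+/+). Grouped by title, the libraries at 24 h did not overlap in either condition, and grouped by tag they did. With so few libraries in a group, this does not settle which label is right.

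The cell type was checked against 8 monocyte markers, each of which is listed. Their summed level had a median of 23459 CPM without stimulus at 6 h and 28963 CPM at 24 h, with Lyz2, the lysozyme of myeloid cells, as the most abundant. Under stimulus the sum had a median of 8910 CPM at 6 h and 10236 CPM at 24 h: Lyz2, Cd14 and Cx3cr1 were lower while Ly6c2, the surface antigen of inflammatory monocytes, was higher. Ccr2 at -1.28 and -2.77 (log2) and Itgam at -2.13 and -1.46 were also lower at 6 h and 24 h. Csf1r was at -0.93, short of 2-fold, at 6 h and at -2.20 at 24 h. Fcgr1 was higher at 6 h, at 4.47, and short of 2-fold at 24 h, at 0.69. Of other cells, the B cell markers Ms4a1, Pax5 and Ebf1 are not listed, while the 4 listed ones, mostly Ighm, summed to 135 to 153 CPM without and 312 to 371 CPM with stimulus at 6 h and to 127 to 198 and 34.9 to 42.7 CPM at 24 h. The 3 CD3 chains of T cells are not listed, and the T cell sum had a highest value of 6.995 CPM. Unstimulated, neutrophil markers summed to 112 to 265 CPM at 6 h and 644 to 1140.2 CPM at 24 h (95.4 to 361 and 126 to 216 CPM stimulated), and dendritic cell markers to 53.2 to 67.5 CPM and 168 to 303 CPM. Of 6 NK cell markers 1 is listed, Klrk1, at 8.70 to 11.0 CPM without and 391 to 434 CPM with stimulus at 6 h. The 5 listed of 6 markers of plasmacytoid dendritic cells summed to 45.9 to 61.2 and 459 to 582 CPM at 6 h, mostly through Bst2, which is also counted below among the ISGF3 genes. In whole-culture RNA, a change in the share of a cell type and a change in RNA per cell cannot be told apart.

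Divided by exon length, so that genes can be compared, the family summed to between 303 and 328 CPM per kb without stimulus at 6 h and between 2416 and 2601 CPM per kb with it. At 24 h the sums were 327 to 349 CPM per kb without and 1714 to 1880.0 CPM per kb with the stimulus. Exon length is the union over a gene's transcripts in GENCODE M21 (GRCm38), while the authors' processing notes name GRCm39. Levels per kb, shares and ranks depend on these lengths. Without stimulus at 6 h, Irf5 was the most abundant member at 212 ± 8.88 CPM per kb (mean ± SD, n = 4), or 66.9% of the family. It was followed by Irf8 at 33.7, Irf3 at 19.8, Irf9 at 15.1 and Irf2 at 13.8 CPM per kb, then by Irf1 at 10.5 and Irf7 at 10.0, whose ranges overlap, and by Irf4 at 2.15. With the stimulus at 6 h the order began with Irf1 at 943 ± 43.1 CPM per kb and Irf7 at 666 ± 79.7, followed by Irf5 at 438, Irf8 at 347, Irf2 at 70.1, Irf9 at 55.1, Irf3 at 10.8 and Irf4 at 0.930, and no neighbouring ranges overlapped. Irf1 thus went from 3.29% to 37.3% of the family and Irf7 from 3.15% to 26.3%, while Irf5 went from 66.9% to 17.3%.

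Unstimulated at 24 h, Irf5 again led at 205 ± 8.81 CPM per kb, and Irf8 at 38.3, Irf7 at 27.0, Irf9 at 20.5 and Irf1 at 17.5 CPM per kb came next, each overlapping its neighbour in range. Irf3 at 14.7, Irf2 at 12.1 and Irf4 at 6.37 CPM per kb closed that order without overlap. Stimulated at 24 h the first 4 places were those of 6 h, with Irf1 at 709, Irf7 at 593, Irf5 at 235 and Irf8 at 167 CPM per kb. Irf9 at 49.2 then stood above Irf2 at 40.5, and Irf3 at 15.5 and Irf4 at 0.917 CPM per kb came last, again with no overlap between neighbours. The plot of family composition shows the mean shares in each condition and the sum in each library.

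**Figure D1:**
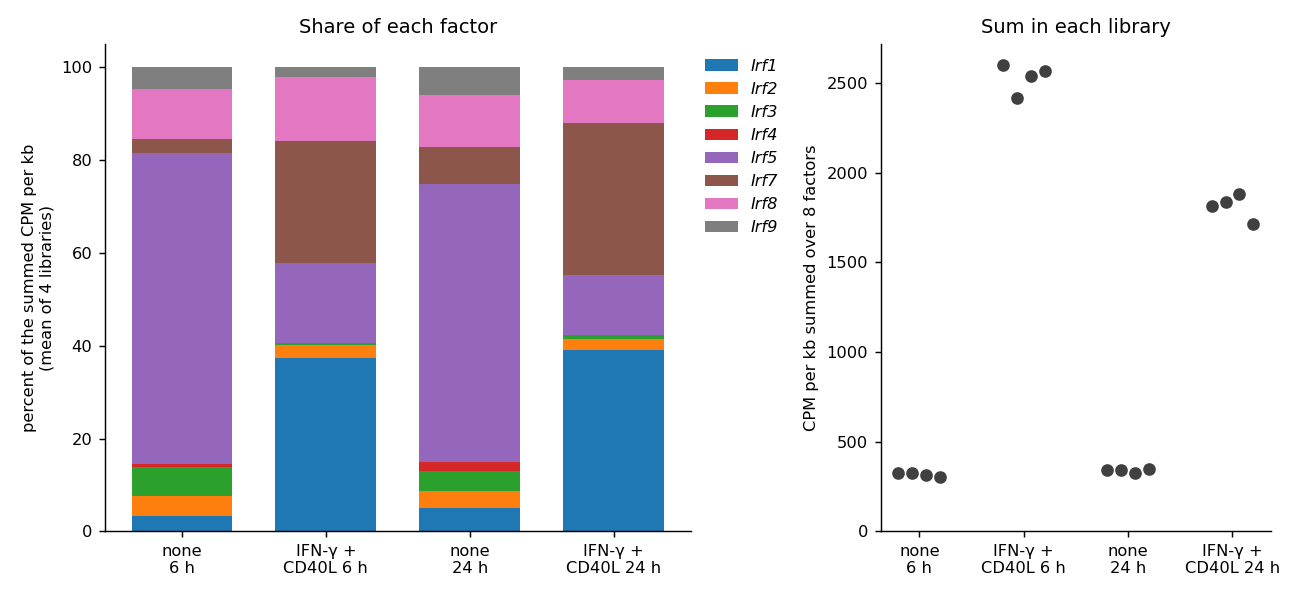
Left, mean share of each of the 8 interferon regulatory factors in the summed level of the family (CPM per kb of exon), in percent over 4 libraries per condition, and right, that sum in each of the 16 libraries on the deposited scale. Irf5 makes up most of the family without stimulus (mean 66.9% at 6 h), and Irf1 and Irf7 together make up most of it with IFN-γ plus CD40L (means 37.3% and 26.3% at 6 h).

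Comparing stimulated with unstimulated libraries asks how the family responded to IFN-γ plus CD40L. At 6 h, 39.6% of the 12111 genes tested changed by at least 2-fold with an adjusted p under 0.05 in limma, 19.5% higher and 20.1% lower, and of the 8 members 6 were higher and 1 lower. At 24 h, 33.3% of 12782 genes passed the same threshold, and 6 members did, 5 higher and 1 lower. The median gene shifted by -0.11 (log2) at 6 h and 0.01 at 24 h on the deposited scale, but by -0.84 and -0.33 when each library was scaled to its own total of reads. On that scale 1519 genes were higher and 5201 lower at 6 h against 2365 and 2433 as deposited, and 1436 and 3282 against 1869 and 2386 at 24 h. Relative to the median gene, the 6 h changes of the members on either scale were 6.61 for Irf1, 6.16 for Irf7, 3.47 for Irf8, 2.45 for Irf2, 1.98 for Irf9, 1.15 for Irf5, -0.77 for Irf3 and -1.11 for Irf4. The same values at 24 h were 5.34 for Irf1, 4.50 for Irf7, 2.12 for Irf8, 1.73 for Irf2, 1.26 for Irf9, 0.19 for Irf5, 0.07 for Irf3 and -2.75 for Irf4. Both scales shift every gene of a library alike, so their relative values match by construction. Under quantile normalization, in the same order, they were 5.95, 5.57, 2.56, 1.79, 1.45, 0.13, -0.79 and -0.76 at 6 h. At 24 h they were 4.95, 4.05, 1.65, 1.52, 1.00, -0.35, -0.10 and -2.67 under quantile normalization. The levels behind these values are drawn in the plot of each member by library.

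**Figure D2:**
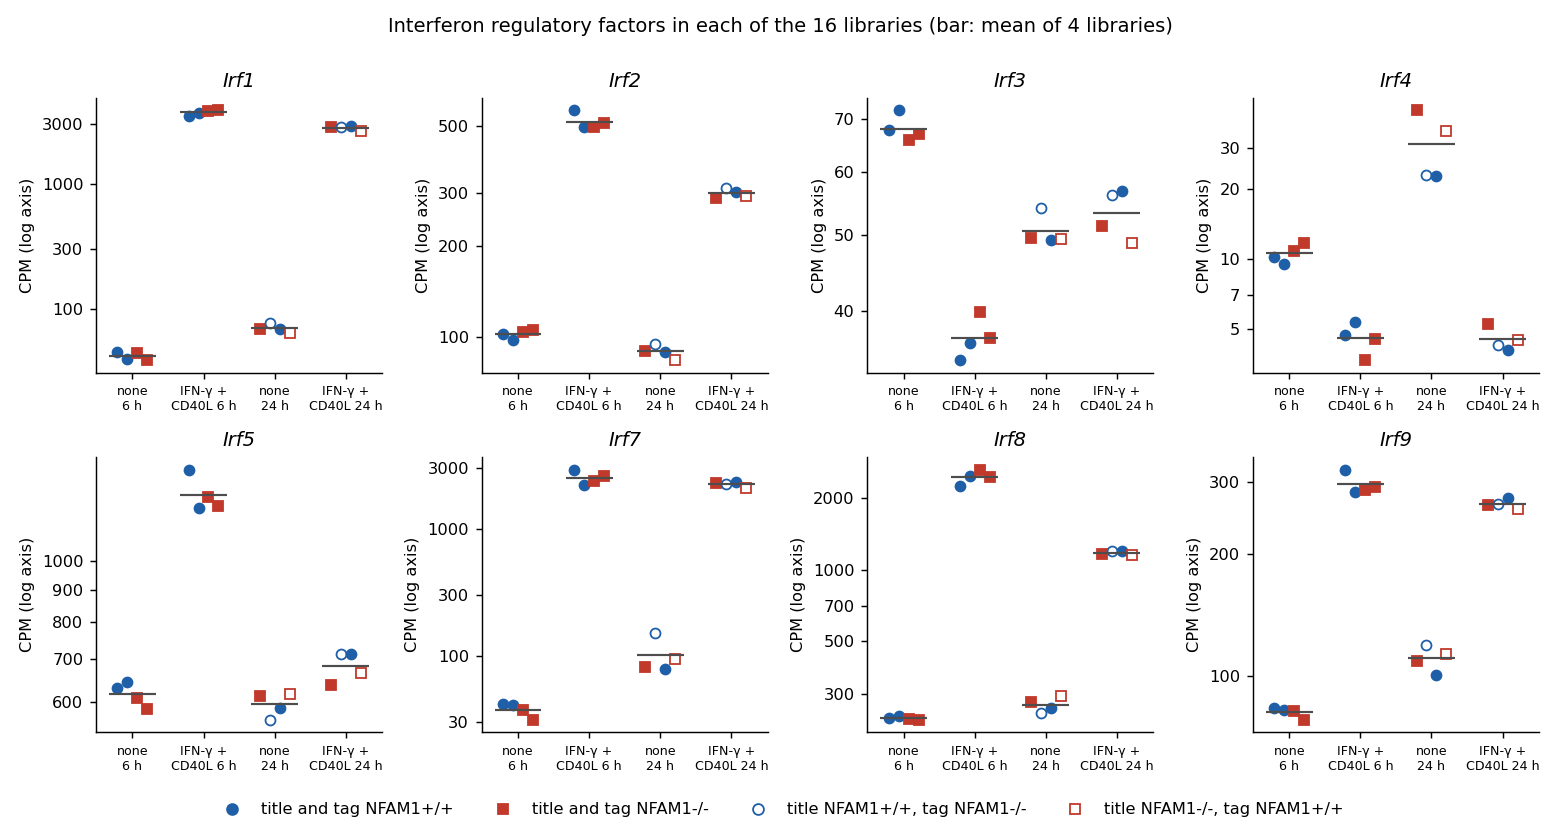
Level of each interferon regulatory factor in CPM (log axis) in each of the 16 libraries, with filled or open symbols by the genotype of title and tag and a bar at the mean of 4 libraries. Irf1 lies between 38.6 and 44.5 CPM without stimulus at 6 h and between 3524 and 3902 CPM with it, and on this deposited scale the stimulated libraries of Irf4 lie below the unstimulated ones at both times.

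Irf1, the IFN-γ-induced activator, measured 44.5 and 39.2 CPM in unstimulated libraries labelled NFAM1+/+ at 6 h and 43.9 and 38.6 CPM in those labelled NFAM1-/-. Stimulated, the same labels gave 3524 and 3706 CPM and 3861 and 3902 CPM. The stimulated libraries lay far above the unstimulated ones with no overlap, and the difference was 6.50 ± 0.06 (log2, SE), or 90.3-fold (adjusted p = 2.58e-12). The log2 difference was 5.77 on the scale of each library's own reads and 5.74 under quantile normalization. At 24 h the unstimulated libraries 43, 44, 45 and 46 held 69.0, 77.1, 68.8 and 63.1 CPM, and the stimulated libraries 55, 56, 57 and 58 held 2865, 2844, 2925 and 2645 CPM. Each stimulated value was again far above each unstimulated one, by 5.35 (log2), or 40.6-fold (adjusted p = 6.63e-17). Irf1 was the member with the highest fold change at both times.

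Irf2, which competes with IRF1 and mostly represses, ranged from 97.6 to 106 CPM without stimulus at 6 h and from 497 to 566 CPM with it. At 24 h it ranged from 83.9 to 94.9 CPM and from 289.6 to 312 CPM. The groups did not overlap at either time, and Irf2 was 5.06-fold higher at 6 h (log2 2.34 ± 0.05, adjusted p = 3.36e-10) and higher by 1.74 (log2) at 24 h (adjusted p = 2.09e-13). At 6 h the log2 difference was 1.61 on the scale of each library's own reads and 1.58 under quantile normalization. Irf1 and Irf2 both rose, and the ratio of Irf1 to Irf2 per length, which scaling to another library size does not change, went from a median of 0.765 (0.681 to 0.809) to 14.01 (11.6 to 14.4) at 6 h. At 24 h it went from 1.43 (1.40 to 1.51) to 17.5 (16.7 to 18.4).

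Promoters are shown for the members that rose at both times and whose promoter held a searched motif, which were Irf1, Irf2 and Irf8. The promoters come from RefSeq (GRCm38.p6), with 300 bases around each start site of the 8 members, and each member matched by symbol. The motifs searched on both strands were the IFN-γ-activated site GAS (TTCNNNGAA, in 8.3% of 32851 promoters of this length), the ISRE (2 copies of GAAA with 2 bases of any kind between them, in 3.44%), the element shared by PU.1 and IRFs, called EICE (GGAA, any base, then TGAAA, in 0.731%), and the NF-kB motif (in 8.46%). The stretches below lie before the start site on the plus strand, at chr11:53769904-53770013 for Irf1, chr8:46739495-46739744 for Irf2 and chr8:120736167-120736233 for Irf8. Capitals mark motif matches, in Irf1 a GAS 90 bases and an NF-kB motif 13 bases before the start, in Irf2 an EICE overlapping an ISRE, then a GAS and an NF-kB motif, and in Irf8 a pair of GAS motifs.
Irf1: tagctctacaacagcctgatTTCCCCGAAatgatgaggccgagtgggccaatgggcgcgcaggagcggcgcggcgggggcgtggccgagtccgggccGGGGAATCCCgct
Irf2: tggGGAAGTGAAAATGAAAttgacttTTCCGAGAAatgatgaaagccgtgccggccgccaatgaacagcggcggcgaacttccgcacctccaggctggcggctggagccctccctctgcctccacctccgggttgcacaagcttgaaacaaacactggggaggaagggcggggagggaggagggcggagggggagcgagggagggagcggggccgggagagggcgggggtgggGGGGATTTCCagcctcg
Irf8: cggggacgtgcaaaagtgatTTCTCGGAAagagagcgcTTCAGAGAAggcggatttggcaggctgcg
The windows of Irf3, Irf4, Irf5, Irf7 and Irf9, and the second windows of Irf1 and Irf8, hold none of these letters, which says nothing about binding of any factor.

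Irf8, the partner of PU.1 in monocyte and dendritic cell development, measured 238 and 243 CPM in unstimulated libraries labelled NFAM1+/+ at 6 h and 236 and 234 CPM in those labelled NFAM1-/-. Stimulated, it measured 2251 and 2470.0 CPM and 2625 and 2452 CPM. The stimulated libraries lay above the others without overlap, 10.3-fold higher (log2 3.36 ± 0.05, adjusted p = 3.25e-11). The log2 difference was 2.63 on the scale of each library's own reads and 2.35 under quantile normalization. At 24 h the 4 unstimulated libraries, in the order 43 to 46, held 278, 249, 261 and 293 CPM and the 4 stimulated ones, 55 to 58, held 1164, 1199, 1193 and 1155 CPM. The groups stayed apart, at 4.36-fold (log2 2.13, adjusted p = 6.07e-14).

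Irf4, the PU.1 partner best known from B cells, plasma cells and dendritic cells, was per length the least abundant member in each condition. It measured 10.2 and 9.54 CPM in unstimulated libraries labelled NFAM1+/+ at 6 h, 10.8 and 11.7 CPM in those labelled NFAM1-/-, and with stimulus 4.71 and 5.34 CPM and 3.66 and 4.53 CPM. The stimulated values were all below the unstimulated ones, by -1.22 ± 0.12 (log2, adjusted p = 9.83e-06), although under quantile normalization the change of -0.97 fell short of 2-fold. At 24 h, libraries 43 to 46 held 43.7, 23.0, 22.6 and 35.6 CPM without stimulus and libraries 55 to 58 held 5.21, 4.24, 4.04 and 4.48 CPM with it. The unstimulated libraries were spread widely but lay above each stimulated one, and the difference was -2.75 ± 0.18 (log2, adjusted p = 2.27e-09), 6.71-fold lower with the stimulus. Of the 6 listed dendritic markers 2 also fell at both times, Flt3, a growth factor receptor of that lineage, and the lectin gene Cd209a. Flt3 fell by -2.76 (log2) at 6 h and from 67.3 to 145 CPM to 3.42 to 4.10 CPM at 24 h. Cd209a fell from 18.9 to 25.2 CPM to 0.123 to 0.324 CPM at 6 h. At 24 h Cd209a fell from 50.5 to 112 CPM to 0.0314 to 0.217 CPM. The other 4 were higher with stimulus at 6 h, Ccr7, the receptor of migrating dendritic cells, at 2.68 (log2), Xcr1 at 2.31, Clec9a at 2.20 and the dendritic cell factor Zbtb46 at 1.71, the last short of 2-fold at 0.98 on the scale of own reads. At 24 h Ccr7 went from 22.2 to 54.5 CPM to 83.7 to 211 CPM and Zbtb46 from 4.07 to 7.25 CPM to 13.9 to 21.7 CPM, Xcr1 passed as higher at 1.13 (log2) but not at 0.79 on own reads, Clec9a at 0.32 did not pass, and the sums over all 6 overlapped, at 168 to 303 and 116 to 245 CPM. The B cell and neutrophil sums given above were lower with stimulus at 24 h without overlap, with Ighm at -2.001 and Cd79b at -2.15 (log2). Of the 3 listed plasma cell markers 1 passed at 24 h, Sdc1 at -2.34, and their sums overlapped, at 70.0 to 87.1 and 62.9 to 77.1 CPM. Of the 5 plasmacytoid markers Siglech at -2.41 and Tcf4 at -1.31 were lower at 24 h and Bst2 at 3.01 higher, with sums of 122 to 160.3 CPM without and 537 to 634 CPM with stimulus. At 6 h Cd79b at -2.45 and Sdc1 at -2.435 (log2) were lower with stimulus. Ighm at 1.30, Tcf4 at 2.38 and Bst2 at 3.88 were higher at 6 h, Ighm short of 2-fold at 0.57 on own reads. Siglech at -0.12 did not pass at 6 h. The part of the cell types that these markers stand for in the Irf4 values was not tested. Per length, Irf8 exceeded Irf4 by a median ratio of 15.7 (13.9 to 17.7) without and 354 (321 to 498) with stimulus at 6 h, and of 6.55 (4.43 to 8.02) and 188 (155 to 205) at 24 h.

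Among the members activated by microbial sensors, Irf7, the amplifier of type I interferon production, rose most. It measured 41.6 and 41.0 CPM in unstimulated libraries labelled NFAM1+/+ at 6 h and 37.4 and 31.6 CPM in those labelled NFAM1-/-, against 2905 and 2211 CPM and 2363 and 2582 CPM with stimulus. The groups were far apart, at 66.4-fold (log2 6.05 ± 0.09, adjusted p = 2.2e-11). The log2 difference was 5.32 on the scale of own reads and 5.36 under quantile normalization. At 24 h, libraries 43 to 46 held 81.2, 153, 78.4 and 95.4 CPM and libraries 55 to 58 held 2280.0, 2249, 2342 and 2088 CPM. Library 44 was the highest of the unstimulated libraries yet far under the stimulated ones, and the difference was 22.8-fold (log2 4.51, adjusted p = 1.57e-12).

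Irf3, the constitutive factor that starts the IFN-β response, was the one other member with lower values at 6 h. It measured 67.8 and 71.9 CPM in unstimulated libraries labelled NFAM1+/+ and 65.9 and 67.0 CPM in those labelled NFAM1-/-, against 34.7 and 36.5 CPM and 39.9 and 37.0 CPM with stimulus. The groups did not overlap, but the difference of -0.88 ± 0.06 (log2, adjusted p = 4.66e-07) was under 2-fold, and it passed that threshold at -1.61 on the scale of each library's own reads. At 24 h it held 49.6, 54.0, 49.2 and 49.5 CPM in libraries 43 to 46 and 51.4, 56.2, 56.8 and 48.9 CPM in libraries 55 to 58. These overlap, with a difference of 0.07 (log2, adjusted p = 0.274) that turned to -0.12 under quantile normalization and to -0.26 on the scale of own reads.

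Irf5, the TLR-activated factor of inflammatory cytokine genes and the main member of unstimulated cells, measured 630.3 and 644 CPM in libraries labelled NFAM1+/+ and 609 and 585 CPM in those labelled NFAM1-/- at 6 h. With the stimulus it measured 1392 and 1211 CPM and 1261 and 1219 CPM. The groups were apart and the change was 2.06-fold (log2 1.04 ± 0.06, adjusted p = 1.7e-07), but it was 0.31 (log2) on the scale of own reads, -0.09 under quantile normalization and 0.99 without library 26, none of which reached 2-fold. At 24 h, libraries 43 to 46 held 613, 562, 588 and 618 CPM and libraries 55 to 58 held 638, 713, 715 and 665 CPM. The stimulated libraries were higher without overlap, by 0.20 (log2, adjusted p = 0.00766), and lower by -0.37 under quantile normalization and -0.14 on the scale of own reads. The ratio of Irf7 to Irf3 per length went from a median of 0.518 (0.430 to 0.560) to 59.3 (54.0 to 76.3) at 6 h and from 1.62 (1.45 to 2.58) to 38.3 (36.5 to 40.5) at 24 h.

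Irf9, the DNA-binding subunit of ISGF3, ranged from 77.8 to 82.9 CPM without and from 284 to 322 CPM with stimulus at 6 h. At 24 h it ranged from 100.4 to 119 CPM and from 258 to 274 CPM. The groups were apart at both times, with 3.65-fold at 6 h (log2 1.87 ± 0.05, adjusted p = 1.51e-09) and a log2 difference of 1.27 at 24 h (adjusted p = 1.66e-11), which was under 2-fold at 0.99 with quantile normalization and 0.93 on the scale of own reads. At 6 h the log2 difference was 1.24 with quantile normalization and 1.14 on the scale of own reads.

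**Figure D3:**
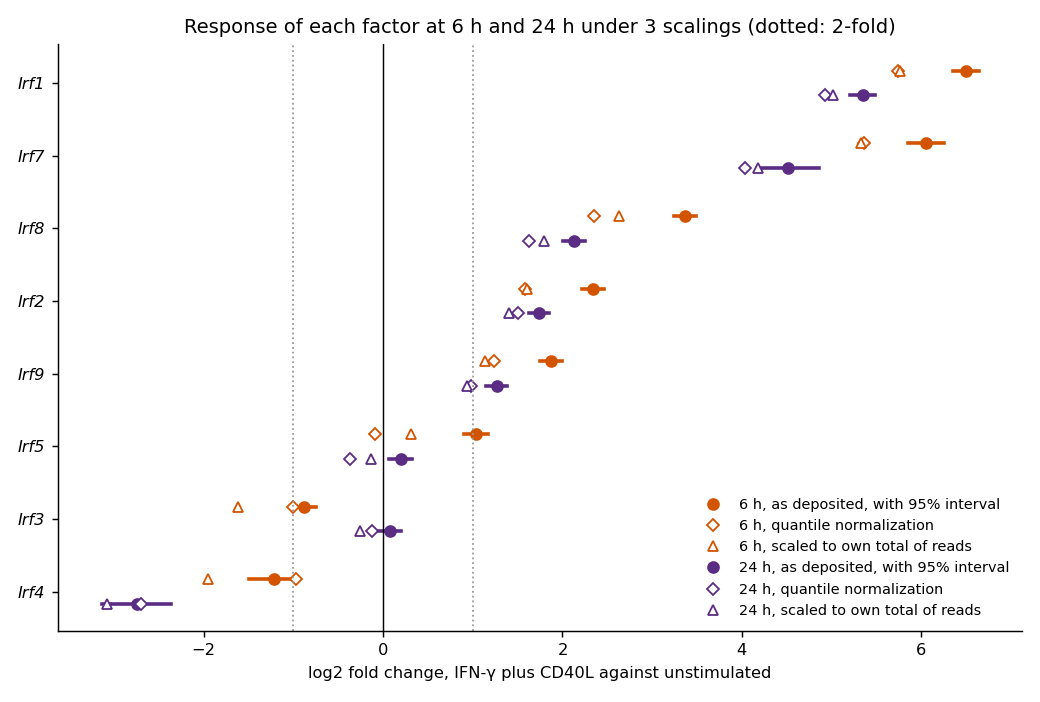
Log2 fold change of each interferon regulatory factor with IFN-γ plus CD40L at 6 h and at 24 h as deposited (filled, with 95% confidence intervals from limma), under quantile normalization and scaled to own total of reads (open). Irf1 and Irf7 lie highest at both times (6.50 and 6.05 at 6 h), Irf4 is lower at 24 h (-2.75) than at 6 h (-1.22), and the sign of Irf5 turns under quantile normalization at both times and that of Irf5 and Irf3 at 24 h under either other scaling.

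The difference between the responses at 24 h and 6 h was tested directly, and the plot of the response by time shows both. It passed the threshold for 31.4% of genes, 18.1% with a negative value, and for 4 of the 8 members, Irf7 at -1.54 (log2, adjusted p = 2.8e-05), Irf4 at -1.53 (9.69e-05), Irf8 at -1.24 (7.51e-09) and Irf1 at -1.15 (7.78e-08). For Irf1, Irf7 and Irf8 a negative value is a smaller rise at 24 h, and for Irf4 it is a larger fall. Irf5 at -0.84, Irf9 at -0.60 and Irf2 at -0.60 were under 2-fold, as was Irf3 at 0.96, the one member with a positive difference. The first 3 came closer to 0 at -0.28, -0.25 and -0.08 under quantile normalization, where Irf2 had an adjusted p of 0.331, and at -0.45, -0.20 and -0.20 on the scale of own reads. The median gene stood at 0.04 as deposited and 0.44 on the scale of own reads, where 3233 genes were higher and 1559 lower against 1700 and 2313 as deposited. On that scale Irf3 reached 1.35 and passed, while Irf1 at -0.75 and Irf8 at -0.84 did not. Quantile normalization likewise put Irf1 at -0.81 and Irf8 at -0.72.

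Between 6 and 24 h without stimulus, 21% of genes changed, with 13.3% higher, and so did 2 members, both of which rose. Irf4 went from 9.54 to 11.7 CPM at 6 h to 22.6 to 43.7 CPM at 24 h (log2 1.51, adjusted p = 4.15e-06), and Irf7 from 31.6 to 41.6 CPM to 78.4 to 153 CPM (log2 1.38, adjusted p = 3.02e-06). Neither pair of groups overlapped, and the dendritic, neutrophil and monocyte marker sums given above were also higher at 24 h in each library. Markers of plasmacytoid dendritic cells, a cell type with high Irf7, summed to 45.9 to 61.2 CPM at 6 h and 122 to 160.3 CPM at 24 h, with Siglech at 2.26 and Tcf4 at 1.28 (log2), and the part of these cells in the Irf4 and Irf7 values was not tested. The labels do not say whether libraries of both times were prepared together. The other 6 members were under 2-fold, from Irf3 at -0.43 to Irf1 at 0.74.

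With the stimulus, 33.5% of genes differed between 24 and 6 h and 1 member passed, Irf8, which was lower at 24 h by -1.05 (log2, adjusted p = 2.96e-10) but short of 2-fold at -0.52 under quantile normalization and -0.68 on the scale of own reads. Irf5 at -0.90, Irf2 at -0.79, Irf3 at 0.52 and Irf1 at -0.41 were under 2-fold, and Irf1 turned to 0.04 under quantile normalization. Irf9 at -0.16 and Irf7 at -0.16 turned to 0.26 and 0.22 under quantile normalization and to 0.21 and 0.21 on the scale of own reads, and Irf4 at -0.02 turned to 0.36 on the latter. The median gene moved from 0.04 to 0.41 on the scale of own reads and to -0.12 with libraries centred on their medians, where Irf5 at -1.06 passed. Genes higher and lower at 24 h numbered 2103 and 2184 as deposited, 3396 and 1494 on own reads and 1654 and 2620 when centred.

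The comparison of genotypes asks whether the factors differ without NFAM1. At 6 h, 0.0661% of genes passed between the labelled genotypes without stimulus and 0.033% with it, 8 and 4 genes, and none of the 8 members was among them by limma, where 1058 and 1522 genes had an unadjusted p under 0.05. Without stimulus, Irf7 had the largest difference among members, with values of 41.6 and 41.0 CPM in libraries labelled NFAM1+/+ and 37.4 and 31.6 CPM in those labelled NFAM1-/-. The latter were lower by -0.27 (log2, 95% CI -0.55 to 0.02, adjusted p = 0.636). With 1 library left out this difference ranged from -0.39 to -0.14. With stimulus the member with the largest difference was Irf4, at 4.71 and 5.34 CPM against 3.66 and 4.53 CPM. Irf4 was also lower, by -0.30 (95% CI -0.69 to 0.09, adjusted p = 0.491), and by -0.45 to -0.15 with 1 library left out. The difference between genotypes in the response passed for 0% of genes and 0 members, with 846 genes at an unadjusted p under 0.05 in limma. The member farthest from 0 was Irf4 at -0.49 (adjusted p = 0.712). Leaving out 1 library leaves a lone library in an arm, which is assumed to vary like the other groups, and without library 2, 3, 4, 11 or 12 this gave 22, 15, 0, 1 and 1 genes without stimulus. With stimulus, leaving out library 3, 4, 26, 10, 11 or 12 gave 2, 2, 0, 135, 1 and 1, and for the difference in response library 2, 10 or 11 gave 3, 68 and 1.

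At 24 h, libraries whose title and tag name the same genotype number 1 per group, which allows no test. Between libraries 43 and 45, 3.05% of 12164 genes differed by at least 2-fold, and between 55 and 57, 3.01%, with 0 members among either. Irf4 was closest, at 43.7 CPM in library 43 (NFAM1-/-) against 22.6 in library 45 (NFAM1+/+), a log2 difference of 0.95, or in reads 3775 against 1636. The libraries whose labels conflict held 23.0 CPM in library 44 and 35.6 CPM in library 46. Both libraries with NFAM1-/- in the title were thus above both with NFAM1+/+ in the title, while by the tag the genotypes overlapped. With so few libraries in a group, such an order can arise by chance. Fitted with the genotype of the title in limma, Irf4 was higher in NFAM1-/- by 0.79 ± 0.15 (log2, adjusted p = 0.027), under 2-fold, one of the 0.954% of genes with an adjusted p under 0.05. With 1 of the 4 libraries left out, so that a lone library in an arm is assumed to vary like the other groups, that p was 0.167 without library 43, 0.199 without 44, 0.111 without 45 and 0.0946 without 46, with log2 differences of 0.64 to 0.94. With the genotype of the tag, a choice added after the values were seen, the difference was 0.16 (adjusted p = 1). With stimulus the difference by title was 0.22 (adjusted p = 0.555).

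Markers of other cells were also unequal over these 4 libraries, as the plot of Irf4 against marker sums shows. The 6 dendritic markers summed to 279.6 CPM in library 43, 183 in 44, 168 in 45 and 303 in 46, with Flt3, the most abundant, at 129, 67.3, 77.7 and 145 CPM. The 4 listed B cell markers summed to 194, 136, 127 and 198 CPM, nearly all of it Ighm, the IgM heavy chain, at 179, 118, 112 and 191 CPM, and the 3 listed plasma cell markers to 72.6, 82.9, 87.1 and 70.0 CPM. Neutrophil markers summed to 1140.2, 799, 644 and 919 CPM, and monocyte markers to 28008, 30095, 29918 and 26079 CPM. Plasmacytoid dendritic markers summed to 131, 159, 122 and 160.3 CPM. Libraries 43 and 46 were thus high in Irf4, Ighm and the dendritic and neutrophil sums and low in the monocyte and plasma cell sums. Single markers differed from this, with the B cell receptor gene Cd79b at 11.9, 16.4, 13.8 and 5.96 CPM in libraries 43 to 46 and Ccr7 at 35.6, 54.5, 22.2 and 23.8 CPM, and the part of these cells in the Irf4 difference was not tested.

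**Figure D4:**
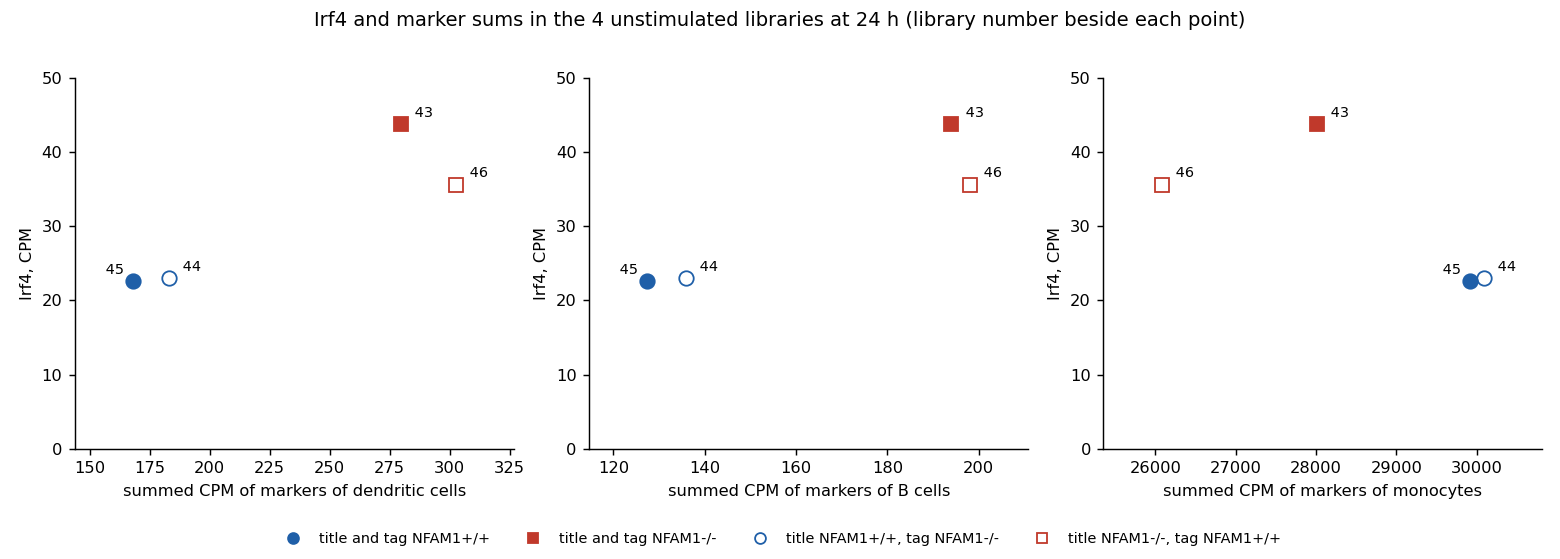
Irf4 level (CPM) against the summed level of marker genes of dendritic cells, B cells and monocytes (CPM) in the 4 unstimulated libraries at 24 h, each point labelled with its library number. Libraries 43 and 46 hold 43.7 and 35.6 CPM of Irf4 and dendritic marker sums of 279.6 and 303 CPM, against 183 and 168 CPM in libraries 44 and 45.

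The genes around the factors were described from lists, by the share that passed, beside the median gene at -0.11 (log2) at 6 h and 0.01 at 24 h and the 39.6% and 33.3% of all genes that passed. Of 11 partners and corepressors, 3 were higher and 2 lower at 6 h, near the share of all genes (median 0.47, but -0.27 on the scale of own reads, with 3 and 4, and -0.03 under quantile normalization), and 3 and 2 at 24 h (median 0.62, but 0.08 under quantile normalization). Without Spib, a PU.1 relative chosen after its values were seen, the other 10 had 2 higher and 2 lower at 24 h (median 0.40, but -0.08 under quantile normalization). The ISGF3 subunit gene Stat2 went from 56.8 to 68.1 CPM to 1653 to 1897 CPM at 6 h, by 4.75 (log2), and was still higher by 3.10 at 24 h. Batf2, a leucine-zipper protein that pairs with IRF1, was under 1.03 CPM (31 to 115 reads) without stimulus and at 532 to 639 CPM with it at 6 h (log2 10.07). Batf3, a dendritic cell factor that acts with IRF4 and IRF8, was higher at 6 h (2.23) and lower at 24 h (-1.15, short of 2-fold at -0.80 under quantile normalization), a difference of -3.38 between the times. Spi1, which encodes PU.1, was at 0.47, turning to -0.62 under quantile normalization and -0.27 on own reads, and Batf was at 0.55, turning to -0.18 on own reads. The corepressor genes Irf2bpl and Irf2bp1, of the IRF2-binding protein family, were lower at 6 h by -1.78 and -1.10, the latter short of 2-fold at -0.95 under quantile normalization and -0.92 with libraries centred on their medians. At 24 h Irf2bpl was again lower, at 43.0 to 50.6 CPM without and 2.17 to 3.44 CPM with stimulus. Irf2bp1 was higher at 24 h, at 13.5 to 16.9 CPM without and 20.2 to 27.6 CPM with stimulus. Spib itself measured 4.81 to 11.7 CPM in the other 3 conditions and 97.03 to 148 CPM with stimulus at 24 h (log2 3.80).

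Upstream of IRF3, IRF5 and IRF7, 27 symbols of sensor, adaptor and kinase genes were searched. Sting1, Cgas and Rigi are not listed under these symbols. The other 24 were counted, and they include Tmem173 and Ddx58, the older symbols of Sting1 and Rigi. Mb21d1, which encodes the DNA sensor cGAS, was not among the 24 but rose by 2.46 (log2) at 6 h. Of the 24, 13 were higher and 1 lower at 6 h (median 1.03), with 9 and 4 on the scale of own reads (0.30) and 9 and 1 under quantile normalization (0.39). At 24 h 14 were higher and 1 lower (median 1.12), with 10 and 2 on own reads (0.79). Tlr3, the receptor of double-stranded RNA, had 10 to 68 reads without stimulus at 6 h and 46.8 to 51.1 CPM with it, so no fold is given. Zbp1, a sensor of Z-form nucleic acid, rose by 7.28 (log2) at 6 h, and Ifih1, which encodes the RNA sensor MDA5, by 6.18. Mavs, the adaptor of RNA sensors, was lower by -1.24, with -0.99 under quantile normalization. Of 7 interferon receptor chains and kinases, 1 was higher and 1 lower at 6 h (median -0.05), beside 39.6% of all genes. On own reads (median -0.78) and under quantile normalization (-0.55) the counts were 1 and 3. As deposited, the genes that passed were the kinase Jak2, at 145 to 183 CPM without and 1416 to 1889 CPM with stimulus (log2 3.25), and the IFN-γ receptor chain Ifngr1, at 382 to 466 and 78.3 to 83.4 CPM (-2.38). At 24 h 1 was higher and 2 lower (median -0.30).

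Of 7 enzymes that act on IRF proteins, ubiquitin ligases and an isomerase, 4 were higher and 0 lower at 6 h (median 1.18), against 3 and 1 on own reads (0.45), and 2 and 0 at 24 h (median 0.78), against 1 and 0 (0.44). Trim21, a ligase for IRF3, IRF5 and IRF8, rose by 4.79 (log2), Peli1, a Toll-pathway ligase, by 3.51, and Trim26, a ligase for IRF3, by 2.48 at 6 h. Of 14 type I and type III interferon genes, 1 is listed, Ifnb1, which encodes IFN-β. It had 0 to 12 reads per library without and 1934 to 3995 with stimulus at 6 h, and 2 to 10 without and 58 to 172 with stimulus at 24 h, so no fold is given.

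Of 21 genes driven by ISGF3, 21 were higher at 6 h (median 6.76) and at 24 h (median 3.90), where the smaller rise passed the test of the difference for 20, beside 18.1% of all genes with a negative difference that passed. Ifit2, an inhibitor of viral translation, went from 4.88 to 10.3 CPM to 3715 to 4309.8 CPM at 6 h (log2 9.02) and was higher by 5.36 at 24 h. Ifi44 rose by 8.62 and 6.29, the first from only 32 to 62 reads per library without stimulus. Rsad2, which encodes the antiviral enzyme viperin, rose by 8.54 and 4.87. Without stimulus 15 of the 21 were higher at 24 h than at 6 h, beside 13.3% of all genes and in the same direction as Irf7. Library 44 was the highest of the 4 unstimulated libraries at 24 h in 18 of the 21 genes, beside 30.9% of all genes, as it was in Irf7. Without library 44, 14 of the 21 were higher at 24 h than at 6 h, beside 12.9% of all genes. Bst2, also a plasmacytoid marker, was among the 15 at 1.39 (log2), and the part of those cells was not tested.

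Of 20 genes that need IRF1, 19 were higher at 6 h (median 5.47) and 19 at 24 h (median 4.03). The smaller rise at 24 h passed for 13, beside 18.1% of all genes with a negative difference that passed. The median difference of the list was -1.24 (log2) as deposited. The median gene stood at 0.04 as deposited and 0.44 on the scale of own reads, where the 13 were not recounted. Nos2, the inducible nitric oxide synthase, had 6 to 27 reads without stimulus at 6 h and 561 to 1465 CPM with it, so no fold is given. At 6 h the GTPase gene Gbp2 went from 14.5 to 25.9 CPM to 22790.0 to 25443 CPM (log2 10.20). The JAK inhibitor gene Socs1 went from 1.21 to 3.31 CPM to 909 to 1406 CPM (9.43). The list shares Il12a and Il12b with that of IRF5, Il12b and Cybb with that of IRF8, and Zbp1 with the sensors.

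Of 12 genes of IRF8 with PU.1, 5 were higher and 0 lower at 6 h (median 0.89, but -0.24 under quantile normalization, with 5 and 3) and 4 and 2 at 24 h (median 0.57, but 0.04 under quantile normalization, with 3 and 3). They include Il12b, the p40 chain of IL-12 and IL-23, with 9 to 64 reads without stimulus at 6 h and 26.4 to 174 CPM with it. They also include the nucleic acid receptor Tlr9 (log2 3.78 at 6 h) and the monocyte factor Klf4, at 114 to 136 and 895 to 1196 CPM (2.97). Of 6 IRF5 genes 5 are listed, and 5 were higher at 6 h (median 5.81) and at 24 h (median 5.02). Among them were the chemokine Ccl5, at 6.32 to 9.23 and 1441 to 2728 CPM (log2 7.78 at 6 h), and Il12a, the p35 chain of IL-12 (5.81). Il12a had only 30 to 78 reads per library without stimulus at 6 h. No listed gene of these lists passed between the labelled genotypes at 6 h in either condition. The genotype medians were -0.46 (log2) for the ISGF3 genes and -0.41 for the IRF5 genes without stimulus and -0.05 and -0.52 with it, beside 0.00 and 0.01 for the median gene. The other lists of more than 1 gene lay between -0.14 and 0.08 without and between -0.10 and 0.05 with stimulus, and no test of a list was made. The plot of lists sets their genes beside the members.

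**Figure D5:**
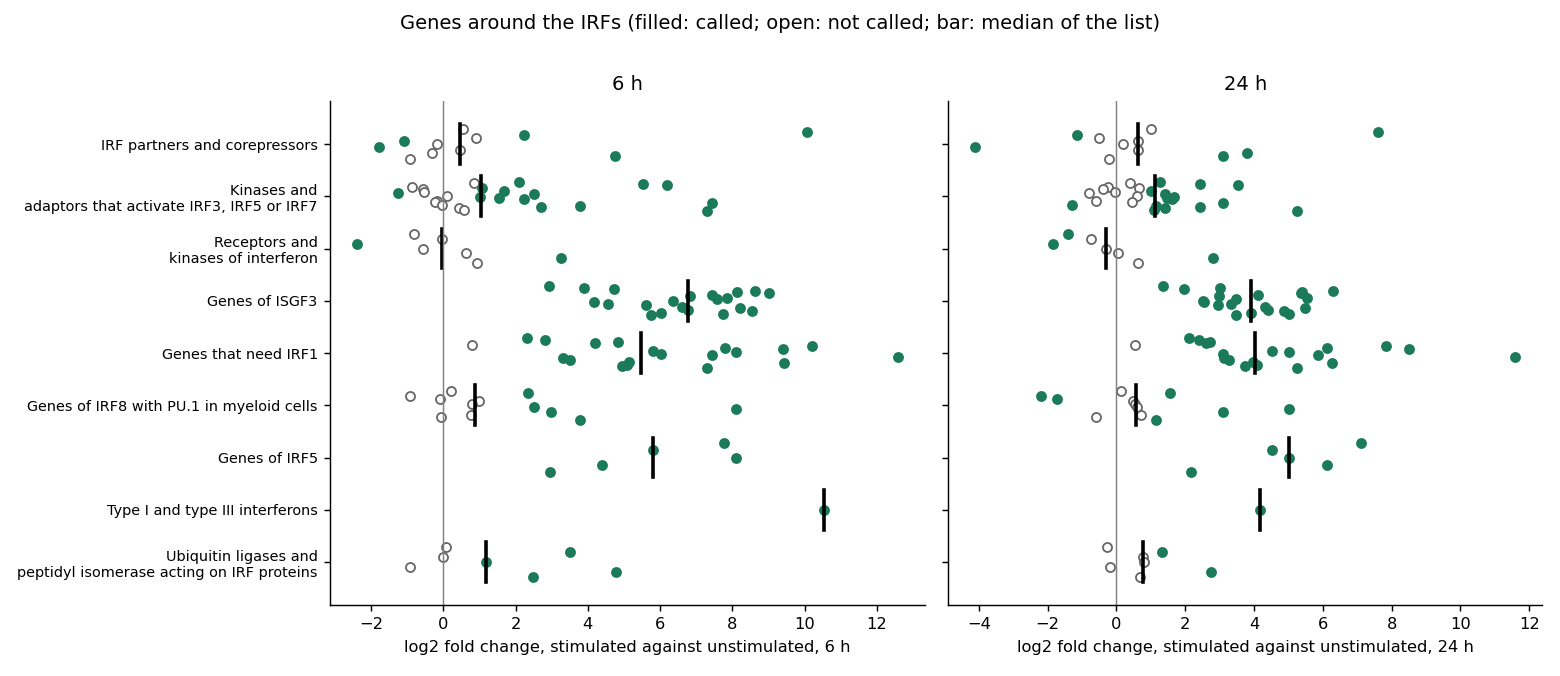
Log2 fold change with IFN-γ plus CD40L at 6 h and 24 h on the deposited scale for the genes of each list around the interferon regulatory factors, 1 point per gene (filled where it passed the threshold) with a bar at the list's median. The 21 ISGF3 genes (median 6.76) and 20 IRF1 genes (median 5.47) lie highest of the larger lists at 6 h, and the median of the partners turns to -0.27 on the scale of own reads and -0.03 under quantile normalization, where that of the IRF8 genes turns to -0.24.

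The genes whose log2 levels followed each member most closely over the 16 libraries were found among the 12782 genes by the root mean square difference after centring. For Irf1 they were Irgm2, an IFN-γ-induced GTPase (0.31), Zbp1 (0.32) and Slco3a1 (0.32), and for Irf7 Slfn1 (0.25), the class I transactivator Nlrc5 and the oligoadenylate synthetase Oas3. Irf8 was followed most closely by Fgd6 (0.17), Irf2 by the antiviral gene Zc3hav1 (0.12), Irf9 by the dipeptidase gene Cndp2 (0.09) and Irf5 by Btbd9 (0.07). Irf3 was followed by the sorting nexin Snx1 (0.05), which went from 187 to 197 CPM to 95.4 to 109 CPM at 6 h, and Irf4 by Arhgap39 (0.27), which went from 55.7 to 64.8 CPM to 6.60 to 8.60 CPM at 24 h. These distances also depend on how far each member itself varied, which was most for Irf1 and least for Irf3.

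In position the 8 genes lie on 6 chromosomes of GRCm38 (GENCODE M21), with Irf3 and Irf7 both on chromosome 7 and Irf2 and Irf8 both on chromosome 8. The libraries are not stranded, so reads in exons that overlap another gene cannot be told apart. Such overlaps take up 14.1% of the exon length of Irf5 (with Tnpo3), 3.4% of Irf1, 2.56% of Irf3, 2.28% of Irf9 and 1.19% of Irf7, and none of Irf2, Irf4 and Irf8.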

How the data were processed

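RNA was sequenced in 16 libraries. Per the study's methods the authors checked reads with FastQC, aligned them with STAR, counted them per gene and normalized with edgeR, and the deposited table holds log2 CPM of scaled library sizes. Whole read counts were recovered from these values with the 0.5-read offset of voom (tolerance 0.01 reads, 100% of values). At 6 h, the ratio of reads to scaled size lay between 0.756 and 0.775 without stimulus and between 1.24 and 1.32 with it. Genes with at least 1 CPM in 2 fitted libraries were tested with limma 3.58.1 in R 4.3.3, with a prior variance following mean expression: 8 libraries in 4 groups at 6 h, and 16 libraries in 6 groups for the rest. A gene passed when its fold reached 2 and its p, adjusted by Benjamini-Hochberg across every gene tested, was under 0.05. The fit was tested on simulated data. Members, gene lists and markers were chosen with earlier results of these data known. Named from each list were up to 3 genes with the largest change in each direction at 6 h, and the partners of IRFs. Alternatives were filters, scalings, prior variance, voom weights, no minimum fold, leaving out each library, and other groupings. Gene symbols turned into dates (17) were left out.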

Additional observations from a re-analysis of the deposited data

Results flagged for a closer look

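Irf3 in library 44, unstimulated at 24 h, measured 5.76 (log2 CPM), apart from the other 3 libraries of its group, which lay at 49.2 to 49.6 CPM against 54.0 CPM. Chance sets apart about 1 in 20 such groups, and each of the 8 members was checked in the unstimulated and in the stimulated libraries at 24 h. The response to IFN-γ plus CD40L differed between 24 h and 6 h by the test of the difference, with an adjusted p under 0.05 for each member on the deposited scale: Irf1 by -1.15 (log2), Irf2 by -0.6, Irf3 by 0.96, Irf4 by -1.53, Irf5 by -0.84, Irf7 by -1.54, Irf8 by -1.24 and Irf9 by -0.6. By the same rule, with no minimum fold, 65.5% of all 12782 genes passed, so passing it does not set the members apart. Under quantile normalization Irf2 was at -0.08, with an adjusted p of 0.331.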

How the results depend on the processing

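Of 680 values of members under alternatives other than leaving out a library, 637 kept direction and side of the threshold, 10 no longer passed, 19 came to pass and 14 reversed. With 1 library left out, where a lone library left in an arm is assumed to vary like the other groups, 751 of 768 kept both, 1 no longer passed and 16 reversed. Of 174 values of genes named from the lists under other scalings, 160 kept both, 7 no longer passed, 4 came to pass and 3 reversed.

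Genes passed at a mean of at least 5 CPM numbered 3141 (stimulus, 6 h), 2555 (stimulus, 24 h), 1444 (time, unstimulated), 2744 (time, stimulated), 2654 (response by time), 5 (genotype, unstimulated, 6 h) and 1 (genotype, stimulated), with fewer genes tested. With no minimum fold they numbered 9605, 9436, 7994, 9595 and 8375 for the first 5 and 19 for genotype unstimulated. For genotype unstimulated, 3 genes passed without a trend in the prior variance and 3 with voom weights, and 0 (without library 4) to 22 (without 2) with 1 library left out. For genotype stimulated, 2 passed under quantile normalization, 2 centred on medians, 0 without the trend, 0 with voom weights, 0 in the fit on 16 libraries, 2 with only the 4 libraries compared, and 0 (without 26) to 135 (without 10) with 1 library left out. The genotype difference in response ranged from 0 to 68 (without 10). At 24 h, 371 and 366 genes at least 2-fold apart became 37 and 74 passing by title and 2 and 3 by tag. Reversals under quantile normalization were Irf5 at 6 h (-0.085), Irf3 (-0.12) and Irf5 (-0.37) at 24 h, Irf1 (0.038), Irf7 (0.22) and Irf9 (0.26) between times with stimulus, Irf8 for genotype unstimulated (0.0078), Irf9 for the genotype difference in response (0.012) and Spi1 at 6 h (-0.62). On own reads they were Irf3 (-0.26) and Irf5 (-0.14) at 24 h, Irf4 (0.36), Irf7 (0.21) and Irf9 (0.21) between times with stimulus, and Spi1 (-0.27) and Batf (-0.18) at 6 h, and centred on medians Irf5 for the genotype difference in response (-0.0052). With 1 library left out, genotype differences ranged from -0.11 to 0.071 for Irf1 unstimulated, and stimulated from -0.16 to 0.023 for Irf2, -0.17 to 0.034 for Irf5, -0.23 to 0.16 for Irf7 and -0.15 to 0.031 for Irf9. The genotype difference in response ranged from -0.073 to 0.13 for Irf5 and -0.10 to 0.081 for Irf9, and Irf4 between times with stimulus from -0.092 to 0.061. The cause of these changes was not tested. No paired analysis was possible because the labels do not say which libraries share an animal.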

Other observations

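Library 44, unstimulated at 24 h, held the highest Irf7 of its group (153 CPM against 78.4 to 95.4 CPM). It was also the highest of the 4 libraries in 18 of the 21 ISGF3 genes and in 15 of the 20 genes that need IRF1, in 7 of the 11 partners and in 3 of the 12 IRF8 genes, against 30.9% of the 12782 genes tested.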
